A study of Homo sapiens with 5 samples.

Results

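Glycolysis and the genes that hypoxia-inducible factor (HIF) switches on were followed in LX-2, a human cell line derived from hepatic stellate cells, which lay down scar matrix in injured liver. The set is 33 genes chosen by name, found by Ensembl ID among the 19936 genes of the deposited files: 20 for glucose uptake and the steps from glucose to lactate, 12 HIF targets outside those steps, and HIF1A, the oxygen-regulated subunit of the factor. The tested cells received small interfering RNA (siRNA) against LIX1L (siLIX1L, 3 libraries) and the reference cells a control siRNA (2 libraries). All were LX-2 cells harvested 48 h after transfection, with no other treatment in the labels. Whether the libraries within a group are separate cultures is not stated, so the p-values cover library-to-library spread alone, which may be technical.

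Glycolysis turns glucose into pyruvate, and lactate dehydrogenase turns pyruvate into lactate when little of it enters mitochondria. When oxygen is low, the prolyl hydroxylases of the EGLN family stop marking HIF for destruction, and the factor binds a short DNA element and raises transcription of most glycolytic genes, of glucose transporters and of genes for pH control, mitophagy and blood vessel growth. HIF1A is controlled mainly through the stability of its protein, so its mRNA need not change when its targets do. Activated stellate cells are known to raise glycolysis.

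The recovered reads numbered 14856104 to 17811940 per library after siLIX1L and 14877647 to 18294056 in the controls. Levels are given as RPM, reads per 1000000 of these totals. LIX1L itself had 6.60, 7.08 and 3.65 RPM in siLIX1L 1, 2 and 3, against 35.5 in control 2 and 26.4 in control 1, and it fell (difference -0.87 on the log2(FPKM + 1) scale, SE 0.11, limma adjusted p = 0.0384), having reached the minimum level for the test only through the controls. Such group differences, siLIX1L minus control, are on this scale throughout unless another is named. All 11 stellate cell markers were detected. ALB, APOA1 and TTR of hepatocytes, CD163 of macrophages, PECAM1 and CDH5 of endothelium and EPCAM and KRT19 of bile ducts stayed under 1 RPM in every library. The other markers of these lists, SERPINA1, PTPRC, CD14, CSF1R, VWF and KRT7, did not. The 4 hepatocyte markers summed to 1.52 to 3.26 RPM after siLIX1L, 6.45 RPM in control 2 and 3.23 RPM in control 1. In the same order, the 3 bile duct markers summed to 1.06 to 3.20, 2.62 and 4.37 RPM. The 3 endothelial markers summed to 1.01 to 2.98, 0.711 and 0.941 RPM. The summed stellate markers were 6954 to 7295 RPM after siLIX1L and 4300 to 11061 RPM in the controls, with control 2 the higher. The 4 leukocyte markers summed to 5.67 to 9.40 RPM after siLIX1L, 37.6 RPM in control 2 and 10.3 RPM in control 1. Mitochondrially encoded genes took 1.08 to 1.29% of reads after siLIX1L, 3.35% in control 2 and 2.24% in control 1. The part of these differences in the results below was not tested, and in bulk RNA fewer cells of a kind and less RNA per cell cannot be told apart.

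The 2 controls differed from each other in this set more than control 1 differed from the siLIX1L cells. Over the 33 genes, the median absolute difference on the log2(RPM + 0.1) scale was 0.83 between control 2 and control 1, and 0.29 to 0.38 between the siLIX1L libraries and control 1. Over the 12931 genes with a mean of at least 10 reads the same measures were 0.45, and 0.39 to 0.42. The closest pair was siLIX1L 1 and siLIX1L 2, at 0.076 over the 33 genes, against 0.24 and 0.28 from them to siLIX1L 3. Of the 33 genes, 32 reached that mean, CA9 being the exception. The 20 glycolysis genes together took 1.10, 1.05 and 1.11% of all reads in siLIX1L 1, 2 and 3, against 1.92% in control 2 and 1.04% in control 1. The 12 HIF targets took 0.0892, 0.0948 and 0.0888% after siLIX1L, against 0.184% in control 2 and 0.0896% in control 1. In both sums control 1 lay close to the siLIX1L libraries and control 2 stood above all other libraries. Gene by gene, control 1 was inside the siLIX1L range for 7 of 20 glycolysis genes, below it for 9 and above it for 4. Among 11 HIF targets it was inside for 4, below for 5 and above for 2, VEGFA and MXI1. Over the 12931 genes, control 1 was inside the siLIX1L range for 3620, below it for 4358 and above it for 4953. VEGFA had 269 RPM in control 1 against 71.7 to 91.7 RPM after siLIX1L, so opposite differences offset each other in the HIF target sum.

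**Figure D1:**
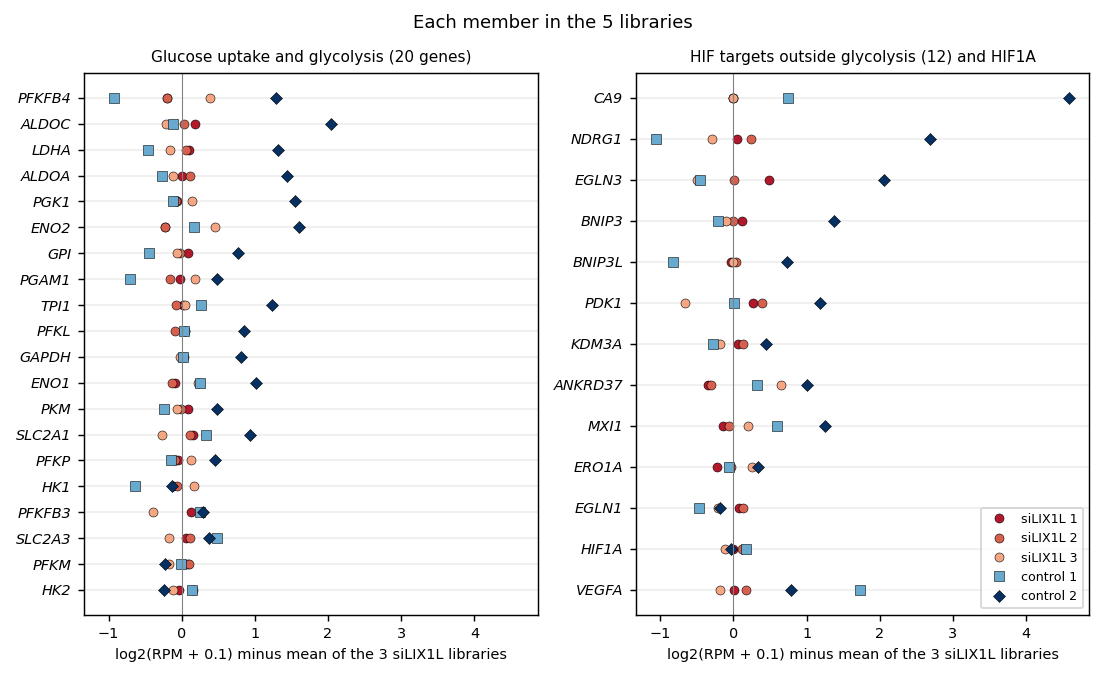
Level of each of the 33 genes in each library, as log2(RPM + 0.1) minus the mean of the 3 siLIX1L libraries; the left panel shows glucose uptake and glycolysis, the right panel the HIF targets and HIF1A, ordered by the gap between the controls. The dark diamonds of control 2 lie farthest right for 16 of 20 glycolysis genes (28.5% of all genes have control 2 highest), while VEGFA has control 1 farthest right.

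The gap between the controls, control 2 minus control 1 in log2(RPM + 0.1), had a median of 0.81 over the 20 glycolysis genes and 0.72 over the 11 HIF targets with enough reads. Over all 12931 genes the median was -0.08. With 1 library on each side this gap has no test. Control 2 held at least 2-fold more than control 1 for 8 of the 20 glycolysis genes and 5 of the 11 HIF targets, beside 7.61% of all genes, and no member differed as much in the other direction, beside 8.18% of all genes. Control 2 was the highest of the 5 libraries for 16 of 20 glycolysis genes and 9 of 11 HIF targets, beside 28.5% of all genes. Corrected for GC content and transcript length (a loess trend per library), the median gap was 0.58 for glycolysis and 0.97 for HIF targets.

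**Figure D2:**
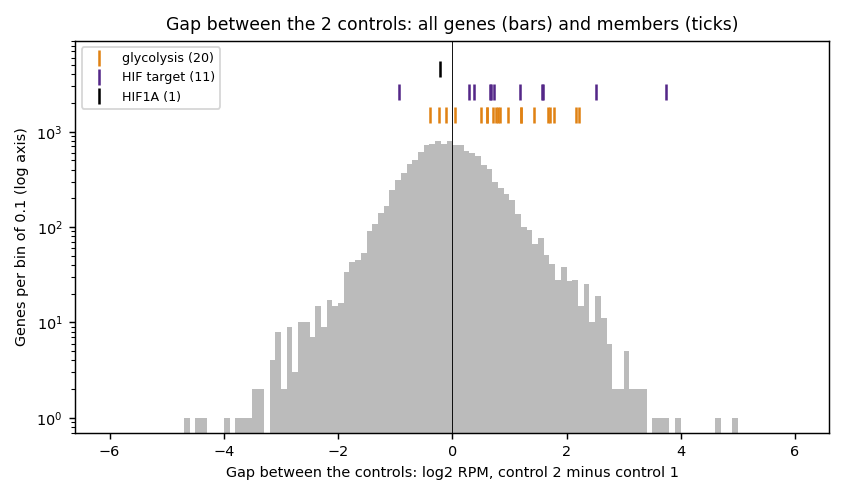
Distribution of the gap between the controls (log2 RPM, control 2 minus control 1) over the 12931 genes with a mean of at least 10 reads, with counts on a log axis; ticks mark the 20 glycolysis genes, 11 HIF targets and HIF1A. Most ticks lie right of 0, with NDRG1 at 3.74 and VEGFA at -0.94.

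Promoters that hold ACGTG are shown for members with a wide and with a narrow gap, because HIF binds a core of ACGTG or GCGTG. RefSeq windows on GRCh38.p14, from 250 bases before to 50 bases after a gene's start, were matched by symbol for 29 members (55 windows), all but SLC2A3, VEGFA, NDRG1 and BNIP3L. The motif ACGTG, on either strand (CACGT on the other), was in 41.8% of these windows, against 25.0% of the 15491 windows of genes with a mean of at least 10 reads. GCGTG, on either strand, was in 41.8% against 47.9%. CACGTG, which holds ACGTG on both strands and is also the site of other factors, was in 14.5% against 9.12%. Capitals mark ACGTG or CACGT in a stretch of 60 bases that holds a match upstream of a start, read 5′ to 3′ on the gene's strand. Relative to the start, the stretch is -60 to -1 for CA9 and ALDOC, -101 to -42 for LDHA and -211 to -152 for PGK1. It is -161 to -102 for BNIP3, -135 to -76 for PFKFB3 and -176 to -117 from 1 of the starts of HK2.
CA9, chr9:35673868-35673927, plus strand: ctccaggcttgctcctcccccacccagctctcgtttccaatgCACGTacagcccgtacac
ALDOC, chr17:28576896-28576955, minus strand: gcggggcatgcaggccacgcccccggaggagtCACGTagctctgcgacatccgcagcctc
LDHA, chr11:18394462-18394521, plus strand: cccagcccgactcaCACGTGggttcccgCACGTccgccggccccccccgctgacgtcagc
PGK1, chrX:78104037-78104096, plus strand: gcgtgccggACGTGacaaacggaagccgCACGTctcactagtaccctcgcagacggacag
BNIP3, chr10:131982025-131982084, minus strand: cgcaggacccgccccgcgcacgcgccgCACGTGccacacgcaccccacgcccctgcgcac
PFKFB3, chr10:6202797-6202856, plus strand: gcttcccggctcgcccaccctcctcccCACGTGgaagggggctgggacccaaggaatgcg
HK2, chr2:74834994-74835053, plus strand: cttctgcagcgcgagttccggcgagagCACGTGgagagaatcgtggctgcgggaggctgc

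The first 5 of these genes had gaps of 1.59 to 3.84 in log2(RPM + 0.1) between the controls, and PFKFB3 and HK2, which hold the same letters, had 0.045 and -0.38. EGLN3 and PFKFB4, with wide gaps of 2.52 and 2.22, had no ACGTG on either strand of their windows. ACGTG was in a window of 19 of the 29 members, beside 32.3% of genes with a mean of at least 10 reads. Members had more windows per gene (55 for 29 genes, against 15491 for 10517), which can raise such a share. Over all genes with a window, the median gap was -0.11 for the 3393 genes with ACGTG in a window and -0.08 for the 7124 genes without. A match is a description of the letters in a window and says nothing about binding in these cells.

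Among the 11 HIF targets with enough reads, NDRG1 had the widest gap. NDRG1 (ENSG00000104419, GRCh38 chromosome 8, 133237171 to 133302022, minus strand) encodes a stress-responsive protein whose mRNA is a standard marker of hypoxia. It had 75.7, 86.9 and 59.7 RPM in siLIX1L 1, 2 and 3, against 471 RPM in control 2 and 35.2 RPM in control 1. The siLIX1L libraries lay between the controls, and control 2 was 13.4-fold over control 1 (exact 95% interval 12.2 to 14.6, counting error only). That gap ranked 4 among 12931 genes. The group means were 74.1 ± 13.6 RPM after siLIX1L (SD, n = 3) and 253 ± 308 RPM in the controls (SD, n = 2). The difference was -0.74 (SE 0.63, limma adjusted p = 0.478). It was -1.95 without control 1 and 0.47 without control 2, so its sign followed the control that was kept.

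CA9, the membrane carbonic anhydrase that exports acid and is nearly silent in most normoxic cells, had no reads in any siLIX1L library, against 42 reads in control 2 and 1 read in control 1. The control 2 level, 2.30 RPM, was at least 36.6-fold over the siLIX1L cells, taking 3 reads over the pooled siLIX1L libraries as the floor, and 34.2-fold over control 1 (exact 95% interval 5.80 to 1381). ARHGEF39 overlaps CA9 on the opposite strand and had 82, 89 and 91 reads after siLIX1L, 182 in control 2 and 61 in control 1, so without strand some reads cannot be assigned. EGLN3, a prolyl hydroxylase that HIF itself induces as feedback, had 13, 9 and 7 reads after siLIX1L, 51 in control 2 and 6 in control 1. Its ratio of control 2 to control 1 was 6.91 (exact 95% interval 2.97 to 19.7). Both genes had few reads in every library except control 2.

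The mitophagy receptors BNIP3 and BNIP3L, which mark mitochondria for removal, had the same kind of gap. BNIP3 had 129.8, 120.0 and 112 RPM after siLIX1L, against 311 RPM in control 2 and 104 RPM in control 1. BNIP3L had 246, 258 and 251 RPM after siLIX1L, against 419 RPM in control 2 and 141 RPM in control 1. In both, the siLIX1L values were close together and between the controls, and neither passed the test (BNIP3 difference -0.54, SE 0.40, limma adjusted p = 0.418; BNIP3L difference -0.02, SE 0.29, adjusted p = 0.980). GENCODE 29 names 39 pseudogenes after BNIP3, and the handling of reads shared with such copies is not stated. PDK1, a pyruvate dehydrogenase kinase, had 24.0, 26.2 and 12.5 RPM after siLIX1L, against 45.4 RPM in control 2 and 19.9 RPM in control 1.

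The other targets had narrower gaps. KDM3A, a histone demethylase, ANKRD37, an ankyrin repeat protein, and ERO1A, an oxidase of the endoplasmic reticulum, had 1.65, 1.63 and 1.31 times as much in control 2 as in control 1, and their siLIX1L libraries overlapped the controls. EGLN1, the main oxygen-sensing hydroxylase, had 68.9, 72.0 and 56.8 RPM after siLIX1L, against 57.9 RPM in control 2 and 47.1 RPM in control 1. EGLN1 reached the minimum level for the test only through siLIX1L 1 and 2 (difference 0.16, SE 0.11, limma adjusted p = 0.372).

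VEGFA and MXI1 were lower in every siLIX1L library than in both controls, a position held by 21.8% of all genes. With 4 glycolysis genes in that position and 1 above both controls, the groups did not overlap for 7 of 32 members, beside 44.0% of all genes. VEGFA (ENSG00000112715, GRCh38 chromosome 6, 43770184 to 43786487, plus strand), the main growth factor for blood vessels, had 81.6, 91.7 and 71.7 RPM in siLIX1L 1, 2 and 3, against 141 RPM in control 2 and 269 RPM in control 1. The order of the controls was the reverse of that in the other HIF targets, with control 1 1.91-fold over control 2. The mean was 81.7 ± 10.004 RPM (SD, n = 3) after siLIX1L and 205 ± 91.0 RPM (SD, n = 2) in the controls, 2.51-fold lower. It missed the threshold in limma (difference -1.12, SE 0.27, adjusted p = 0.0723) and in edgeR (adjusted p = 0.0577), and passed it, lower, in DESeq2 (adjusted p = 0.00107). It also passed in limma when either control was left out (adjusted p = 0.0399 without control 1 and 0.0333 without control 2), where the lone control is assumed to vary like the siLIX1L libraries.

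MXI1, an antagonist of MYC, had 13.1, 13.8 and 16.7 RPM after siLIX1L, against 34.5 RPM in control 2 and 21.8 RPM in control 1. It lay under the minimum level for limma. On the recovered reads its log2 fold change was -0.98 in edgeR (adjusted p = 0.0915) and -0.96 in DESeq2 (adjusted p = 0.0302). HIF1A (ENSG00000100644, GRCh38 chromosome 14, 61695513 to 61748259, plus strand) had 622, 674 and 577 RPM after siLIX1L, against 607 RPM in control 2 and 704 RPM in control 1. These values overlapped, the difference was -0.06 (SE 0.16, limma adjusted p = 0.819), and control 2, with the highest level of most targets, had less HIF1A mRNA than control 1.

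**Figure D3:**
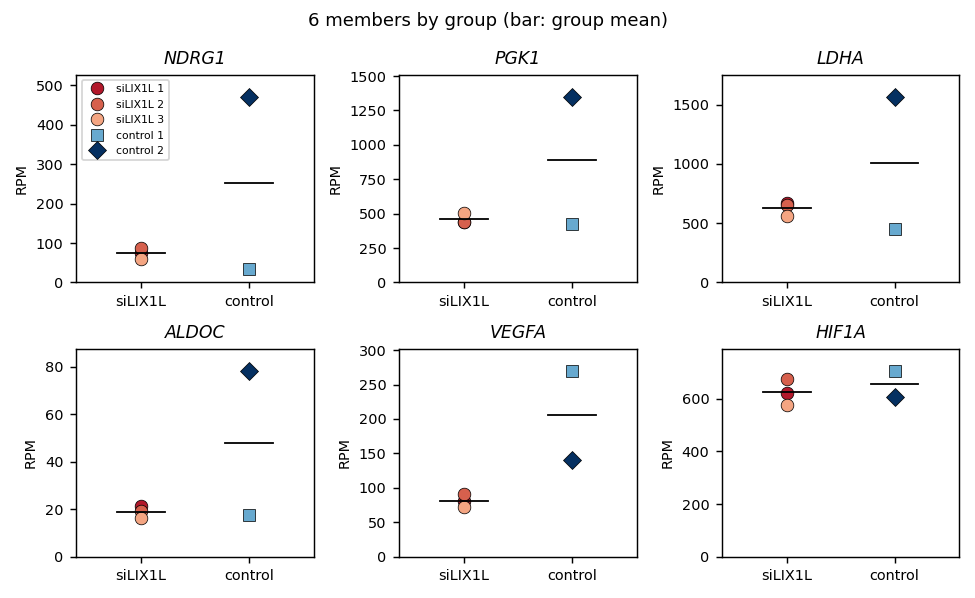
RPM of 6 members in siLIX1L cells (left, n = 3) and control cells (right, n = 2); each point is a library and the bar is the group mean. Control 2 stands apart upward in NDRG1, PGK1, LDHA and ALDOC, control 1 in VEGFA, and HIF1A overlaps between the groups.

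Along glycolysis the gap was smallest at the first steps, glucose uptake and hexokinase. The glucose transporter SLC2A1 had 97.7, 94.5 and 72.9 RPM after siLIX1L, against 168 RPM in control 2 and 110.0 RPM in control 1. Its relative SLC2A3 had 129, 135 and 109 RPM after siLIX1L, against 160.3 RPM in control 2 and 173 RPM in control 1. Both transporters were lower in all siLIX1L libraries than in both controls without passing the test (SLC2A1 difference -0.49, SE 0.19, limma adjusted p = 0.164; SLC2A3 difference -0.38, SE 0.16, adjusted p = 0.181).

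Hexokinase traps glucose in the cell as its phosphate. HK1, the constitutive form, had 376, 391 and 458 RPM after siLIX1L, against 370.0 RPM in control 2 and 262 RPM in control 1, and was the 1 glycolysis gene with every siLIX1L library above both controls (22.2% of all genes; difference 0.28, SE 0.16, limma adjusted p = 0.295). HK2, the form that HIF induces, had 110.1, 126 and 103 RPM after siLIX1L, against 95.0 RPM in control 2 and 124 RPM in control 1. HK2 thus had no excess in control 2, and its groups overlapped (difference 0.03, SE 0.14, limma adjusted p = 0.892).

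The phosphofructokinase genes PFKL, PFKM and PFKP encode the subunits of the main regulated enzyme of the pathway. PFKL and PFKP had 1.77 and 1.52 times as much in control 2 as in control 1, and PFKM 0.852 times. The bifunctional enzymes PFKFB3 and PFKFB4 make and break down the activator of phosphofructokinase. PFKFB4, a strong HIF target, had 22.5, 22.6 and 33.9 RPM after siLIX1L, against 63.5 RPM in control 2 and 13.6 RPM in control 1. PFKFB3 had 34.3, 37.7 and 23.8 RPM after siLIX1L, against 38.5 RPM in control 2 and 37.3 RPM in control 1. PFKFB4 therefore had the widest gap of the 20 glycolysis genes, 4.67-fold, while PFKFB3 had nearly none.

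Aldolase splits the sugar into 3-carbon units. ALDOC had 21.3, 19.3 and 16.2 RPM after siLIX1L, against 78.1 RPM in control 2 and 17.4 RPM in control 1 (difference -0.87, SE 0.52, limma adjusted p = 0.315). ALDOA had 77, 85 and 85 reads after siLIX1L, against 261 in control 2 and 64 in control 1. These counts are low for an enzyme of this pathway: nearly all of ALDOA (GRCh38 chromosome 16, 30064164 to 30070457) lies within another coding gene on its strand, AC093512.2 (30053090 to 30070420), and whether reads that fit both were counted was not tested. ALDOC likewise overlaps AC005726.1 on its strand. In the 2 overlapping genes the gap between the controls was -0.02 and -0.23, unlike the aldolases.

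From triosephosphate isomerase to lactate dehydrogenase A every enzyme was highest in control 2. PGK1 (ENSG00000102144, GRCh38 chromosome X, 77910739 to 78129296, plus strand), which makes the first ATP, had 440.3, 438 and 507 RPM after siLIX1L, against 1349.5 RPM in control 2 and 424 RPM in control 1. LDHA (ENSG00000134333, GRCh38 chromosome 11, 18394388 to 18408425, plus strand), which makes lactate, had 670.2, 655 and 561 RPM after siLIX1L, against 1567 RPM in control 2 and 454 RPM in control 1. In both genes the siLIX1L libraries lay just above control 1 and far under control 2, at 1.09 and 1.38 times the control 1 level. Neither passed the test (PGK1 difference -0.56, SE 0.35, limma adjusted p = 0.336; LDHA difference -0.42, SE 0.48, adjusted p = 0.597).

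ENO2, the neuronal enolase, had 74.7, 74.6 and 119.8 RPM after siLIX1L, against 265 RPM in control 2 and 98.1 RPM in control 1 (difference -0.82, SE 0.41, limma adjusted p = 0.249). TPI1, which interconverts the 3-carbon sugars, had 899.8, 843 and 915 RPM after siLIX1L, against 2091 RPM in control 2 and 1068 RPM in control 1 (difference -0.75, SE 0.31, limma adjusted p = 0.176). ENO1, the main enolase, had 1720, 1671 and 2128 RPM after siLIX1L, against 3696 RPM in control 2 and 2178 RPM in control 1 (difference -0.63, SE 0.27, limma adjusted p = 0.196). TPI1 and ENO1 were lower in every siLIX1L library than in both controls, though ENO1 in siLIX1L 3 was only slightly under control 1. GPI, PGAM1, GAPDH and PKM had 2.31, 2.30, 1.73 and 1.65 times as much in control 2 as in control 1. GENCODE 29 names 62 pseudogenes after GAPDH and 13 after PGAM1, and pseudogenes after 14 of the 33 genes in all. Other coding genes overlap 12 of the 33, among them PGK1 (ATP7A and PGAM4) and EGLN3 (SPTSSA). The effect of these overlaps on the counts was not tested.

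**Figure D4:**
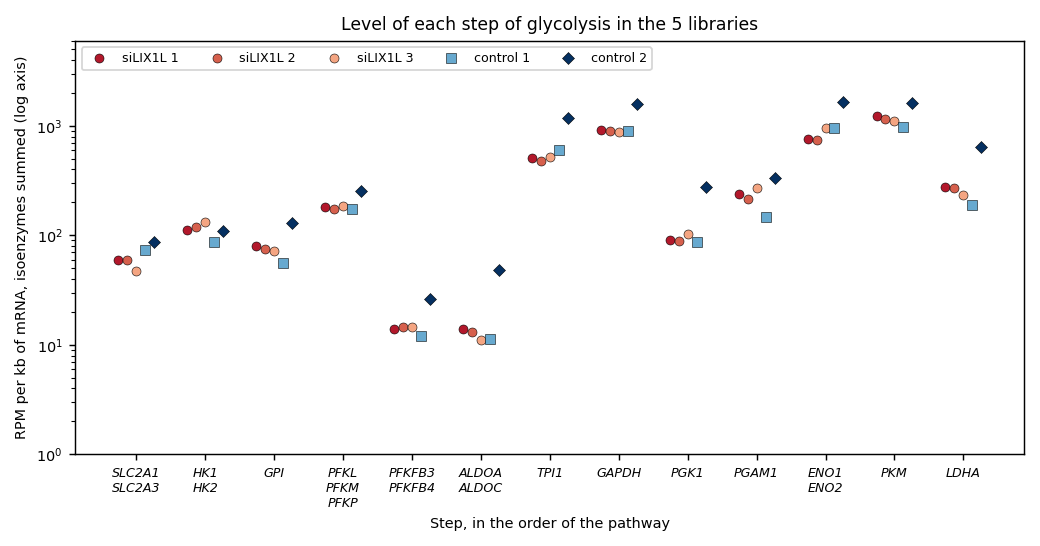
Level of each step of glycolysis in the 5 libraries, as RPM per kilobase of the longest coding transcript with paralogues summed, on a log axis, in the order of the pathway. Control 2 is above control 1 at every step, by 1.17-fold at glucose uptake, 4.22-fold at aldolase and 3.45-fold at lactate dehydrogenase A. ALDOC makes up 74.1 to 82.2% of the aldolase step, and ALDOA, which lies within another coding gene, has low counts.

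Per kilobase of mRNA, the most abundant steps were pyruvate kinase, glyceraldehyde-3-phosphate dehydrogenase and enolase in every library, as counted. The place of aldolase in this order depends on ALDOA reads that may fit its overlapping gene too, which was not tested. Pyruvate kinase stood at 1227, 1149 and 1108 RPM per kilobase after siLIX1L, against 1622 in control 2 and 985.5 in control 1. Hexokinase was an exception to the order of libraries, with 113, 119.6 and 133 RPM per kilobase after siLIX1L, against 109 in control 2 and 87.0 in control 1. Within families, the shares of PFKFB4 and EGLN3, among others, were largest in control 2. These pairs do not set a HIF target against a gene outside HIF control, since EGLN1 is itself among the HIF targets here. PFKFB4 made up 45.3, 43.1 and 64.2% of the PFKFB3 and PFKFB4 sum after siLIX1L, against 67.5% in control 2 and 31.5% in control 1. EGLN3 made up 3.07, 2.02 and 1.69% of the EGLN1 and EGLN3 sum after siLIX1L, against 10.7% in control 2 and 2.09% in control 1. HK2 went the other way, at 16.8, 18.2 and 13.5% of the hexokinases after siLIX1L, 15.1% in control 2 and 24.7% in control 1.

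**Figure D5:**
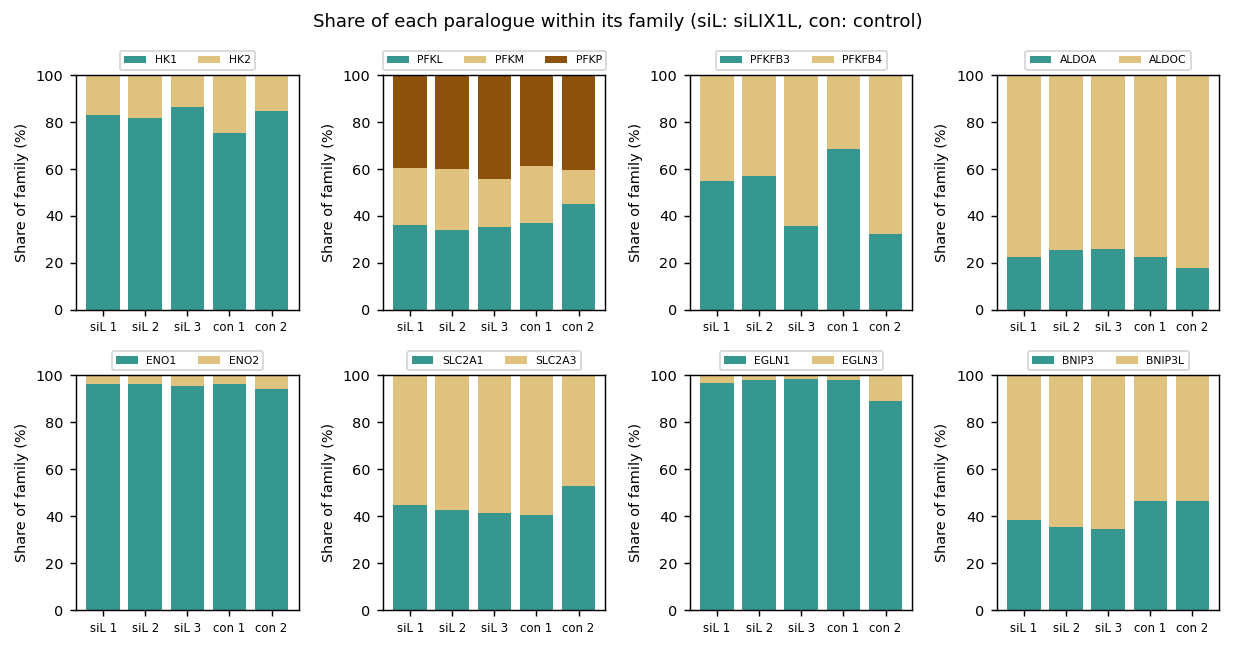
Share of each paralogue within its family, from RPM per kilobase of the longest coding transcript, in siLIX1L 1 to 3 and control 1 and 2. The PFKFB4 share is 67.5% in control 2 and 31.5% in control 1, while BNIP3 has a similar share in both controls, 46.7% in control 2 and 46.3% in control 1.

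Between siLIX1L and control cells, none of the 25 members that reached the minimum level passed limma's adjusted p of 0.05, beside 1.87% of the 6464 genes tested. That minimum, at least 1 FPKM in at least 2 libraries, was met by 17 of 20 glycolysis genes, 7 of 12 HIF targets and HIF1A. At an unadjusted p under 0.05 there were 4 members, beside 27.6% of all genes. EdgeR on the recovered reads also called none of 32 members (1.44% of all genes called), with 8 members at an unadjusted p under 0.05 (26.1% of all genes), and DESeq2 called VEGFA and MXI1 of 33, both lower (6.22% of all genes called lower). Of the members under limma's minimum, edgeR gave adjusted p = 0.284 for EGLN3, 0.295 for ALDOA, 0.349 for PDK1, 0.399 for ANKRD37, 0.501 for PFKFB3 and 0.547 for PFKFB4, and DESeq2 gave adjusted p = 0.246 for CA9. The limma differences were negative in 13 of 17 glycolysis genes and 6 of 7 HIF targets, beside 3270 of the 6464 genes tested. Their medians were -0.39 in the glycolysis genes and -0.11 in the HIF targets, against -0.0054 over all genes tested.

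Leaving out a control changed this picture. Such a fit holds 1 control library, which is assumed to vary like the siLIX1L libraries, so its calls do not measure spread among controls. Without control 1, 10 of 17 glycolysis genes and 4 of 7 HIF targets were called lower and none higher, beside 11.9% of all genes called lower and 12.2% called higher. They were ALDOC, PGK1, LDHA, TPI1, PFKL, GAPDH, GPI, ENO1, ENO2 and SLC2A1, and NDRG1, BNIP3, BNIP3L and VEGFA. Without control 2, VEGFA alone was called lower, beside 2.66% of all genes. In log2(RPM + 0.1), the median difference of the glycolysis genes was -0.42 with both controls, -0.83 without control 1 and 0.058 without control 2. For the 11 HIF targets it was -0.60, -1.01 and 0.21. The siLIX1L libraries lay between the controls, above control 1 and below control 2, for 8 of 20 glycolysis genes and 4 of 11 HIF targets, beside 6.59% of all genes.

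Other genes of the pathway were given by 64 names in 3 lists. Of 32 other HIF targets, 19 reached the minimum level and 3 fell in limma (1.13% of all genes called lower), all of them lower in every siLIX1L library than in both controls. DESeq2 called 8 of 31 lower, beside 6.22% of all genes. Of the 31 with a mean of at least 10 reads, 14 were lower in every siLIX1L library than in both controls, beside 21.8% of all genes. In that same list, 1 was higher in every siLIX1L library, beside 22.2%. ADM, the vasodilator adrenomedullin, had 55.4, 51.2 and 53.7 RPM after siLIX1L, against 336 RPM in control 2 and 152 RPM in control 1 (difference -2.03, SE 0.33, limma adjusted p = 0.0449). DDIT4, an inhibitor of mTORC1, had 13.5, 12.4 and 11.5 RPM after siLIX1L, against 38.0 RPM in control 2 and 39.1 RPM in control 1 (difference -1.48, SE 0.15, limma adjusted p = 0.0384). NFIL3, a transcription factor, had 50.3, 49.99 and 37.6 RPM after siLIX1L, against 100.1 RPM in control 2 and 130.3 RPM in control 1 (difference -1.09, SE 0.18, limma adjusted p = 0.0449). DDIT4 and NFIL3 were thus lower after siLIX1L with no excess in control 2.

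Of the same list, 15 of 31 genes with enough reads had at least 2-fold more in control 2 than in control 1, beside 7.61% of all genes, and 1 had at least 2-fold more in control 1, beside 8.18%. Among the 15 was P4HA1, a collagen prolyl hydroxylase, at 49.7, 51.4 and 31.0 RPM after siLIX1L, 191 RPM in control 2 and 38.0 RPM in control 1. STC2, a secreted glycoprotein, went the other way, with 886, 881 and 952 RPM after siLIX1L, 372 RPM in control 2 and 2188 RPM in control 1. Of the 23 other genes of glycolysis and pyruvate handling, limma tested 9 and called none, with 1 at an unadjusted p under 0.05, and edgeR (16 tested) and DESeq2 (17 tested) called none. The 3 further genes of the lists with the smallest p were EP300 (difference 0.51, limma adjusted p = 0.0826), ANGPTL4 (-0.91, 0.103) and FAM162A (-0.71, 0.111). EP300, a transcriptional coactivator, reached the minimum level only through the siLIX1L libraries, where it was higher. The median gap between the controls was 0.31 in the other glycolysis genes, 0.84 in the other HIF targets and -0.44 in the 8 of 9 HIF subunits and regulators with enough reads. Of the 9, limma tested 5 and called none, with 3 at an unadjusted p under 0.05, edgeR called none of 8, and DESeq2 called EP300 (adjusted p = 0.0106) and EGLN2 (adjusted p = 0.0309) of 8 higher, beside 6.32% of all genes. EPAS1, the second HIF alpha subunit, had 438, 465 and 320 RPM after siLIX1L, against 161 RPM in control 2 and 309 RPM in control 1. P4HA1, STC2 and EPAS1 were chosen after their values were seen.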

How the data were processed

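RNA of LX-2 cells was sequenced 48 h after transfection, 3 siLIX1L and 2 control libraries, grouped by their titles. The authors deposited FPKM per gene for each library, and for siLIX1L 3 also a gene length and the raw read count, per the file headers. Bowtie 0.12.2 and the mouse build mm8 appear in the submitters' processing notes, although the gene IDs are human. Strandedness is not given. The lengths equal whole gene spans of GENCODE 29 for 98.2% of genes, which lowers the FPKM of intron-rich genes. Levels of different genes were therefore compared per kilobase of the longest coding transcript. FPKM times length gave whole reads (tolerance 0.01) for 100% of values, equal to the deposited counts for all 19936 genes of siLIX1L 3. These totals give the depth. A count of 0 allows up to 3 reads, and floors and intervals cover counting error only.

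Groups were compared by limma 3.58.1 in R 4.3.3 on log2(FPKM + 1), which understates changes of low genes. The fit used eBayes (trend, robust), was two-sided, and was adjusted by Benjamini-Hochberg (threshold 0.05) for the 6464 genes reaching 1 FPKM in 2 or more libraries. Alternatives were edgeR 4.0.16 (TMM, quasi-likelihood), DESeq2 1.42.0, both on recovered reads, other minima, pseudocounts and scalings, and fits without each library. RPM differences used log2(RPM + 0.1) for genes with a mean of at least 10 reads. The main limma fit, edgeR and DESeq2 were also run on simulated reads with the same spread in both groups. The other alternatives were not run on simulated reads. Full values are given for the 4 members of each class with the smallest limma p, the 3 with the widest control gap and a list of 11 genes, and for listed pathway genes past the threshold plus the next 3. Members, lists and tests were chosen with earlier results of these data known.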

Additional observations from a re-analysis of the deposited data

How the results depend on the processing

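Against 121 genes past limma's threshold, the count was 0 with no minimum level (3407 at an unadjusted p under 0.05), 233 after quantile normalization, 188 in edgeR, 1673 in DESeq2, 3 with the length and GC trend removed and 0 with siLIX1L 1 and 2 averaged (953 unadjusted). With 1 library left out it ranged from 0 to 1517: 1517 without control 1, 258 without control 2 and 0 without siLIX1L 1, 2 or 3 (1011, 882 and 1764 unadjusted). It was 138 with a minimum of 5 FPKM, 156 with a pseudocount of 0.1 and 102 with median-ratio scaling. The labels number libraries 1 and 2 in both groups, and same-numbered libraries deviated with a correlation of -0.16. This compares 1 difference per group, so it cannot tell whether they share more than a number. A replicate block gave 94 genes and no member.

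With 1 library left out, 0 to 10 glycolysis genes and 0 to 4 HIF targets passed, and DESeq2 called 2 HIF targets. Their median log2 RPM differences ran from -0.83 to 0.058 and from -1.01 to 0.21, and after removal of the length and GC trend they were -0.21 and -0.54. Limma differences of single genes that changed sign on leaving out a library ran from -0.090 to 0.16 for HK2, -0.70 to 0.38 for GPI, -0.35 to 0.11 for PFKP, -1.84 to 0.094 for ALDOC, -1.21 to 0.081 for PGK1, -0.48 to 0.70 for PGAM1, -0.48 to 0.23 for PKM, -1.30 to 0.45 for LDHA, -1.27 to 0.19 for BNIP3, -0.53 to 0.50 for BNIP3L, -0.16 to 0.034 for HIF1A, -1.95 to 0.47 for NDRG1, -0.28 to 0.16 for KDM3A and -0.26 to 0.045 for ERO1A. Other sign changes were HK2 at -0.11 and EGLN1 at -0.028 with the trend removed, GAPDH at 0.11, PKM at 0.27 and HIF1A at 0.071 after quantile normalization, PGAM1 at -0.033 in edgeR and -0.013 in DESeq2, and BNIP3L at 0.035 with a pseudocount of 0.1. Their cause was not tested. CA9, EGLN3 and ANKRD37 rest on few reads, which limits what their group differences can show at this depth.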
